A study of Mus musculus with 16 samples.

Results

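Respiratory complex I (NADH:ubiquinone oxidoreductase) is built in part from nuclear genes that carry the name Nduf. They were followed here in the brain of aged mice. Members were the protein-coding genes of the count table whose symbol begins with Nduf, and 46 of the 40481 genes listed met this rule. They comprise 36 subunits of the complex, 8 assembly factors (Ndufaf1 to Ndufaf8), and Ndufa4 and Ndufa4l2, which were named for complex I but are not counted among its subunits. Ndufb1 was not analysed here. All 46 passed the low-count filter (more than 1 CPM, counts scaled to library size, in at least 7 mice), and all were above 1 CPM in each of the 16 mice.

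The mice, given as C57BL in the labels and as C57BL/6J in the study, were males purchased at 18 months of age. Adropin(34-76), the predicted secreted part of the peptide hormone adropin, was injected intraperitoneally once a day at 90 nmol/kg/d into 8 mice. The other 8 received saline diluent on the same schedule. The peptide was suspended in saline with bovine serum albumin, and whether the control injections held albumin is not stated outright. Treatment ran for 2 weeks before behavioural tests and through them, and both groups were fasted before brain tissue was taken. Neither the labels nor the methods of the study say which brain region was used or how the sequenced mice were picked from those tested, and mice are named by the number pairs of their labels. Poly-A RNA was sequenced, and the libraries held between 35026503 and 70314050 counted reads.

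Complex I takes electrons from NADH and passes them to ubiquinone, and uses the energy released to pump protons across the inner mitochondrial membrane. Its peripheral arm reaches into the matrix and holds the flavin and the iron-sulfur clusters, while its membrane arm holds the proton channels, whose central subunits are encoded by mitochondrial DNA. Around the core lie accessory subunits that stabilise the arms, and assembly factors help to join the parts without staying in the finished enzyme. Neurons depend heavily on this enzyme for ATP.

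The regions just before the transcription start were read for the members, because genes of oxidative phosphorylation are classically described as targets of NRF1, ETS-family (GABP) and CREB factors. RefSeq start sites on the GRCm38.p6 build gave a window of 250 bases upstream of the start for 32 of the subunits, 7 assembly factors and Ndufa4. Of these 40 windows, 30 hold bases of annotated exons and 5 (Ndufa5, Ndufa12, Ndufa13, Ndufb5 and Ndufb11) are exonic throughout, and the RefSeq start of Ndufa5, Ndufa12, Ndufa13 and Ndufs7 lies 315 to 538 bases from the start in GENCODE. All of them are counted in the shares of motifs. The windows below were chosen after values were seen. Ndufb2 was the member with the smallest p, Ndufaf1 was the assembly factor with the smallest p, Ndufa9 was the subunit whose level varied least between mice, and Ndufb6 held letters of several motifs. No base of these windows lies in an annotated exon. They are written 5′ to 3′ on the strand of the gene, and capitals mark motif letters on either strand for the motifs spelled out in the next paragraph.
Ndufb2, chr6:39592315-39592564, plus strand: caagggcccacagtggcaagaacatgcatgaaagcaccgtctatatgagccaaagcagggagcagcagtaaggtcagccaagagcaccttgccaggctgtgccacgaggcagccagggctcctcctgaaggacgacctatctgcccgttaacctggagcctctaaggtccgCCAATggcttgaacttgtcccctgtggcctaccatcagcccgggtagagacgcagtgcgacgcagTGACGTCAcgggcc
Ndufa9, chr6:126849145-126849394, minus strand: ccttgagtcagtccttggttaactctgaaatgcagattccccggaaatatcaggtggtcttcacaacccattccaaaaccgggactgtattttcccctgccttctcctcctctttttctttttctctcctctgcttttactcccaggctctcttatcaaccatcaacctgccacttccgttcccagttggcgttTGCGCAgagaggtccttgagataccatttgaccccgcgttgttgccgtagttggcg
Ndufb6, chr4:40279422-40279671, minus strand: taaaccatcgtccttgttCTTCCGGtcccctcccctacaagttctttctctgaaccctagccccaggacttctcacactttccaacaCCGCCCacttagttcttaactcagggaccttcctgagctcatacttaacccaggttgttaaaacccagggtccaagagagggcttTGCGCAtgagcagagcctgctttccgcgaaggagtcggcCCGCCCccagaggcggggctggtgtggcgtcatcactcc
Ndufaf1, chr2:119662835-119663084, minus strand: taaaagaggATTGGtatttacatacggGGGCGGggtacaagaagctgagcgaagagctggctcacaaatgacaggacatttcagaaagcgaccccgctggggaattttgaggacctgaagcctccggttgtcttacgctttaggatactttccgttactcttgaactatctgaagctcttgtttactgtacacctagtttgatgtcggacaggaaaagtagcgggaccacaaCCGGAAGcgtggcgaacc

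The cyclic AMP response element TGACGTCA lay close to the start in Ndufb2, and 3 of 32 subunit windows (9.38%) held it, against 1.55% of all 32851 windows of the same length. The letters TGCGCA, part of the NRF1 motif, were found in 7 subunit windows (21.9%), among them Ndufa9 and Ndufb6, in 1 of 7 assembly factor windows, and in 6.43% of all windows. The ETS core CCGGAAG was found in 3 subunit windows (9.38%) and in 2 of 7 assembly factor windows, Ndufaf1 and Ndufaf8, against 6.91% of all. The GC box GGGCGG was held by 13 subunit windows (40.6%), by 5 of 7 assembly factor windows (71.4%) and by 32.7% of all windows. CCAAT was in 10 subunit windows (31.2%), in 4 of 7 assembly factor windows (57.1%) and in 33.9% of all, TATAAA was in 4 (12.5%) and in 12.4%, and the YY1 core AAGATGG was in none of the member windows and in 4.49% of all. The median GC content was 57.8% in member windows and 52.4% in all windows. Each motif was searched on both strands, with overlapping matches allowed. For members only the 1 window nearest to the GENCODE start was kept, while the set of all windows was not reduced in this way. These matches describe letters only, and no binding was measured.

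Libraries that stand apart are given before the comparison. All 35 markers used for 8 tissue components were above 0 in at least 1 mouse, and the summed level of 5 neuronal markers (Rbfox3, Snap25, Syt1, Tubb3 and Map2) was between 5311 and 6892 CPM in every mouse. Markers of the choroid plexus (Ttr, Kl, Clic6, Prlr and Sostdc1), the epithelium that makes cerebrospinal fluid, summed to 2460 CPM in saline-treated mouse 8_3, 328 CPM in saline-treated mouse 5_4 and 73.4 CPM in adropin-treated mouse 4_3. In the remaining 13 mice they summed to between 11.1 and 47.1 CPM. Cerebellar markers summed to 281 CPM in mouse 8_3, and to 37.8 CPM or less in the other mice. Mice 5_4, 8_3 and 4_3 were also the mice with the highest levels of most complex I genes, as described below. Lists and the members compared in detail are therefore also given without these 3 mice, a choice made after seeing the data. Mice 5_4 and 8_3 are in the saline group, and only mouse 4_3 is in the adropin group. Leaving them out lowers the saline mean more for most members, which moves a log2 fold change below 0 upwards by construction. The values without them show the weight of these mice and are no independent check of the difference. All 5 choroid plexus markers had a log2 fold change below 0 with an unadjusted p below 0.05. Their sums spanned 11.1 to 73.4 CPM in the adropin group (median 18.5) and 12.6 to 2460 CPM in the saline group (median 20.9). The medians were thus close, and the groups parted at mice 8_3 and 5_4. Markers of oligodendrocytes (Mbp, Mog, Mag and Cnp) summed to between 1780 and 5103 CPM with adropin (median 2673) and between 1731 and 5388 CPM with saline (median 3392), with the highest sum in mouse 8_3, and all 4 had a log2 fold change below 0 (median -0.19), none with an unadjusted p below 0.05. For the other lists the median log2 fold change was 0.049 (neurons), 0.050 (astrocytes), 0.076 (microglia, with 1 of 5 markers at an unadjusted p below 0.05), 0.075 (endothelium), -1.04 (cerebellum, with 1 of the 2 markers tested at an unadjusted p below 0.05) and -0.12 (erythroid cells). Astrocyte markers summed to 649.4 CPM in mouse 5_4, 697.3 CPM in mouse 4_3 and 776.7 CPM in mouse 8_3, against 746.3 to 956.3 CPM in the other 13 mice. Microglial markers summed to 170.5, 159.8 and 149.3 CPM in these mice, against 160.2 to 205.7 CPM, and endothelial markers to 149.2, 138.5 and 157.2 CPM, against 142.1 to 195.0 CPM. The part of these cells in the complex I values was not tested. Gm42418, a gene that took up a large share of the reads, held between 0.84% and 4.98% of them with adropin (median 2.53%) and between 0.98% and 3.26% with saline (median 1.54%).

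Levels between genes were compared as CPM after scaling by edgeR's trimmed mean of M values (TMM), divided by the length in kilobases of the shortest principal transcript of the gene. On this scale the 36 subunits had a median of 103.6, with a range from 29.1 to 298.6. Every assembly factor was below every subunit, with levels from 4.93 to 22.2 and a median of 18.3. The highest subunits were Ndufb9, at 298.6 ± 53.7 (SD, n = 16), Ndufa11, at 205.4 ± 38.7, and Ndufb10, at 189.7 ± 26.4. All of these are small accessory subunits of the membrane arm. The lowest were Ndufs4 at 29.1 ± 4.01, Ndufs1 at 36.02 ± 2.18 and Ndufb2 at 36.6 ± 5.05. Ndufs4 is an accessory subunit needed for a stable peripheral arm, and Ndufs1 is the largest core subunit and carries iron-sulfur clusters.

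Subunits that occur together in the enzyme were not at equal mRNA levels. Of the core subunits described here, Ndufs7 was at 185.4 ± 30.1, Ndufs8 at 122.9 ± 16.5, Ndufv1 at 108.5 ± 6.02, Ndufs3 at 84.0 ± 7.10 and Ndufv2 at 78.7 ± 12.1, all on the per-length scale and all above Ndufs1. Ndufv1 holds the flavin where NADH is oxidised, Ndufs7 lines the pocket in which ubiquinone is reduced, Ndufs8 and Ndufv2 bind iron-sulfur clusters, and Ndufs3 ties the base of the peripheral arm together. The median was 130.3 over 9 accessory subunits of the proximal membrane arm, 80.8 over 11 of the distal membrane arm and 80.3 over 9 of the peripheral arm. Of the 45 pairs of neighbours in the order of all 46 genes, 15 differed by more than the SD of their difference between mice, and 30 did not. Clear steps lay between Ndufb9 and Ndufa11 (0.54 ± 0.056 on the log2 scale, higher in 16 of 16 mice) and between Ndufs4 and the top assembly factor Ndufaf3 (0.38 ± 0.091, 16 of 16). By contrast, the middle of the order, from Ndufa13 down to Ndufc2, held no such step.

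Ndufa4, now known as a component of cytochrome c oxidase, was above every subunit, at 395.7 ± 67.9. Its paralog Ndufa4l2, known as a hypoxia-induced gene, was the lowest member, at 4.59 ± 0.67. Ndufab1, the mitochondrial acyl carrier protein, was at 41.5 ± 6.80. Among assembly factors Ndufaf3, which acts early in building the ubiquinone-binding module, was highest (22.2 ± 2.94), and Ndufaf6, a factor for the same part of the enzyme, was lowest (4.93 ± 0.71). Lengths rest on the annotation and not on the transcripts these brains used, so the order holds only for that choice of transcript.

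**Figure D1:**
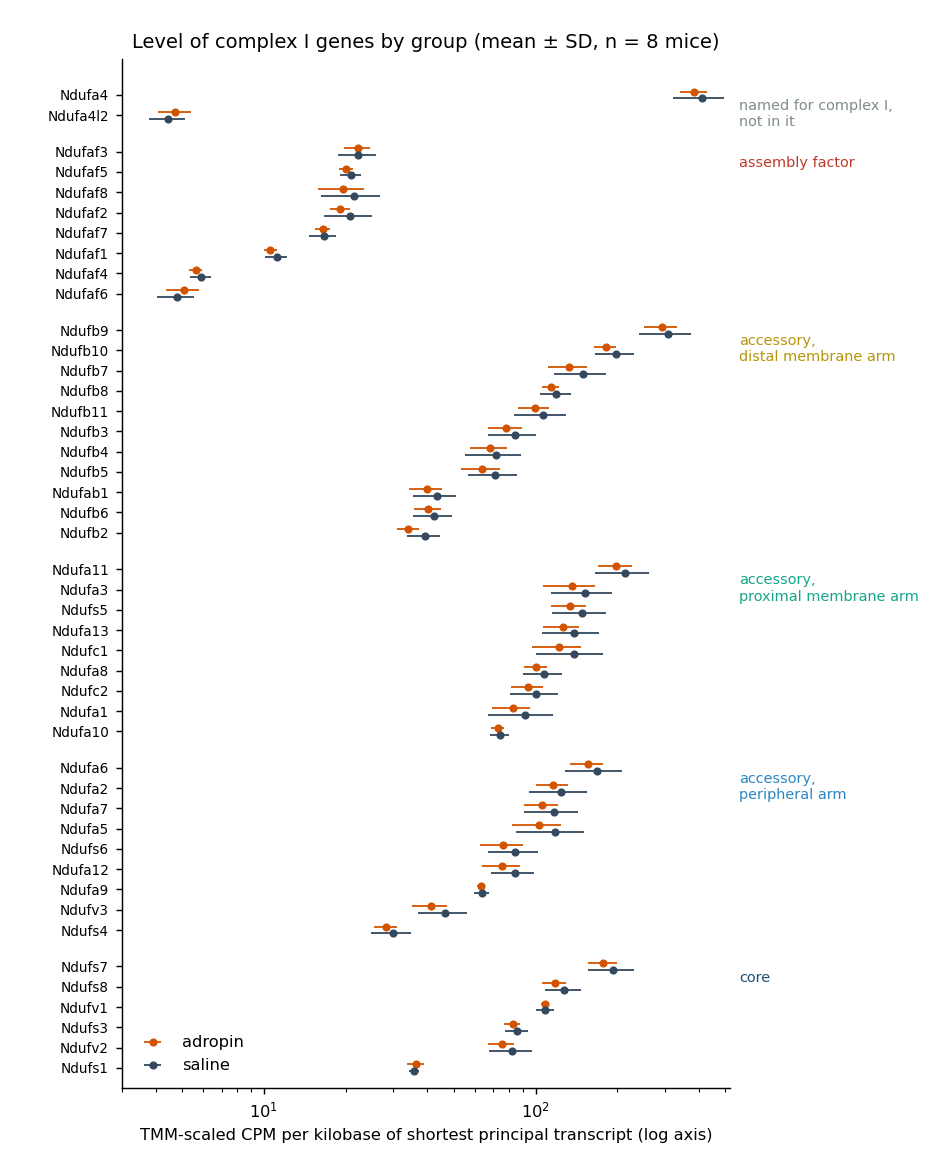
Levels of 45 complex I genes by group and role, as TMM-scaled CPM per kilobase on a log axis; points are means and bars SD over 8 mice in each group. Assembly factors sit between 4.93 and 22.2 and subunits between 29.1 and 298.6 over all mice, while neighbouring genes often lie as close to each other as the group means of a gene.

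The effect of adropin on these genes was addressed by comparing the groups of 8 mice. Ndufb2, a small accessory subunit at the distal end of the membrane arm, was the only member with an unadjusted p below 0.05. In saline-treated mice its level ran from 14.3 through a median of 17.6 to 21.4 CPM (TMM-scaled), and in adropin-treated mice from 13.2 through 15.9 to 17.3. All 8 adropin-treated mice lay below the saline median, but the ranges overlapped, and mice 5_4 and 8_3 were the highest of the saline group. The means were 15.5 ± 1.44 and 17.8 ± 2.49 CPM (SD, n = 8 each), and the log2 fold change of adropin against saline was -0.20 ± 0.085 (SE, unadjusted p = 0.0308, adjusted p = 0.874, edgeR). Without mice 4_3, 5_4 and 8_3 the log2 fold change was -0.12 (unadjusted p = 0.140, edgeR).

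In all, 1 of 46 members (2.17%) had an unadjusted p below 0.05, which is no more than the background of 3.99% (596 of 14949 genes tested). No member reached an adjusted p below 0.05, and nor did any of the 14949 genes (0.0%). The cut-off used in the study was a fold change over 1.5 with an unadjusted p below 0.05. In the edgeR fit used here it was passed by 63 genes (0.421%) and by no member, since the largest log2 fold change among members was that of Ndufb2. The study used limma, so this count is not the study's own. The groups of 8 overlapped for every member, while 1 of the 14949 genes (0.00669%) showed no overlap. In bulk tissue, fewer cells of a type and less RNA per cell cannot be told apart.

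The direction of the small differences was nevertheless shared. The log2 fold change was below 0 for 35 of 36 subunits (97.2%), with a median of -0.11, and for 7 of 8 assembly factors (87.5%), with a median of -0.060. Over all genes tested, 50.8% were below 0 and the median was -0.0019, and among 887 other genes with transcripts of up to 1000 bases 86.8% were below 0. Without mouse 5_4 the counts were 28 of 36 subunits (median -0.040) and 5 of 8 assembly factors (median -0.038). Members are not independent, because they are measured in the same 16 mice and move together, so the count says nothing by itself about an effect of treatment. The medians of subunits and assembly factors were -0.055 apart, and this difference ran from -0.0023 without mouse 5_4 to -0.10 without mouse 4_3.

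**Figure D2:**
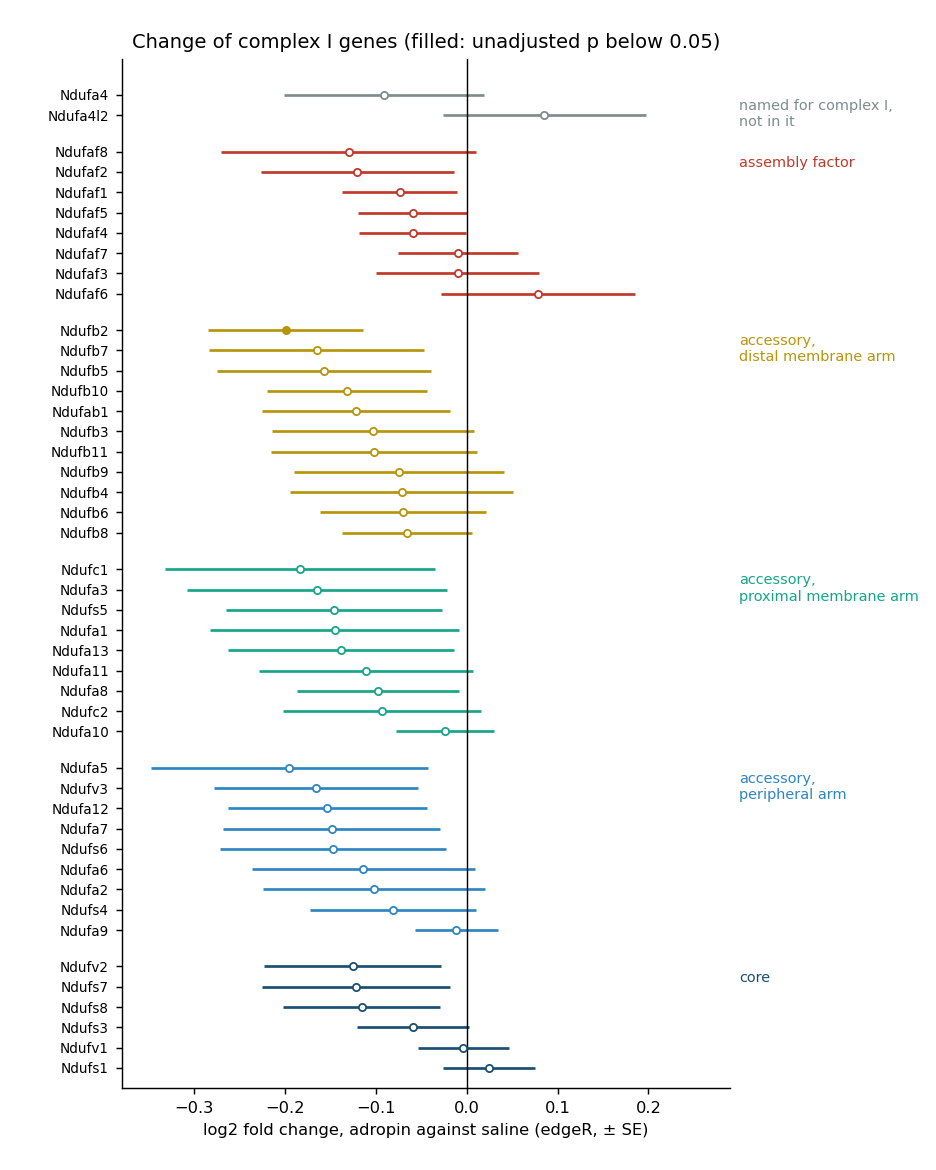
Log2 fold change of 45 complex I genes, adropin against saline, by role; points are edgeR estimates, bars SE, and the filled point is the gene with an unadjusted p below 0.05. Ndufb2 is the filled point at -0.20, and 42 of 45 points lie left of 0 while most bars come close to it or cross it.

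By role, the 7 core subunits had a median log2 fold change of -0.059. Ndufv1 (-0.0036 ± 0.050 SE) and Ndufs1 (0.024 ± 0.051) differed by less than their errors, as did Ndufs3 (-0.059 ± 0.062). Ndufv2, Ndufs7 and Ndufs8 had values of -0.13 ± 0.097, -0.12 ± 0.10 and -0.12 ± 0.086, and the smallest unadjusted p among them was 0.196 (edgeR). The accessory subunits of the peripheral arm had a median of -0.15 (9 of 9 below 0), those of the proximal membrane arm -0.14 (9 of 9) and those of the distal membrane arm -0.10 (11 of 11). Without mice 4_3, 5_4 and 8_3 these medians were -0.023 for the core (4 of 7 below 0), -0.031 (6 of 9), -0.024 (8 of 9) and -0.014 (7 of 11).

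After Ndufb2, the smallest p among subunits belonged to Ndufb10, a distal membrane arm subunit with cysteine motifs typical of import into the intermembrane space, and to Ndufv3, which sits beside the flavin subunit. Ndufb10 ran from 123.1 through 137.2 to 179.8 CPM in saline-treated mice and from 121.1 through 128.9 to 160.1 CPM in adropin-treated mice. The groups covered nearly the same low values and parted only at their upper ends, where mice 5_4, 8_3, 4_3 and 2_3 lay. Its log2 fold change was -0.13 ± 0.088 (unadjusted p = 0.153, adjusted p = 0.874, edgeR). Ndufv3 ran from 59.5 through 69.8 to 101.4 CPM with saline and from 55.6 through 62.3 to 84.9 CPM with adropin, a log2 fold change of -0.17 ± 0.11 (unadjusted p = 0.157). Again the mice at the top were 5_4 and 8_3 in the saline group and 4_3 in the adropin group. Ndufab1 had a log2 fold change of -0.12 ± 0.10. Ndufa5, an accessory subunit near the base of the peripheral arm, had an estimate nearly as large as that of Ndufb2 (-0.20 ± 0.15) with an error almost as large as itself. Without mice 4_3, 5_4 and 8_3 the log2 fold changes were -0.061 for Ndufb10, -0.082 for Ndufv3, -0.055 for Ndufab1 and -0.066 for Ndufa5.

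None of the assembly factors had an unadjusted p below 0.05. Ndufaf1, which works with Ecsit and Acad9 in building the membrane arm, ran from 13.7 through 16.5 to 18.1 CPM with saline and from 13.9 through 15.6 to 16.6 CPM with adropin (log2 fold change -0.074 ± 0.064 SE, unadjusted p = 0.260). Ndufaf2, a late factor related to the subunit Ndufa12, ran from 10.7 through 13.1 to 18.5 CPM and from 10.98 through 13.1 to 14.2 CPM (-0.12 ± 0.11, unadjusted p = 0.271, edgeR). The medians of its groups were the same to 3 digits, and the 3 highest mice, 5_4, 8_3 and 2_3, were all in the saline group. Ndufaf4, the partner of Ndufaf3, ran from 18.2 through 21.6 to 23.7 CPM and from 18.7 through 20.7 to 21.9 CPM (-0.059 ± 0.059, unadjusted p = 0.328, edgeR). Ndufaf6 was the only assembly factor with a value above 0 (0.078 ± 0.11). Ndufaf5 and Ndufaf7, which modify arginines of core subunits, had values of -0.060 ± 0.060 and -0.010 ± 0.066, and Ndufaf8, the partner of Ndufaf5, -0.13 ± 0.14. Without mice 4_3, 5_4 and 8_3 the log2 fold change was -0.052 for Ndufaf1, -0.020 for Ndufaf4, -0.011 for Ndufaf5 and -0.0098 for Ndufaf8. That of Ndufaf2 turned to 0.0024 and that of Ndufaf7 to 0.0034, and Ndufaf6 stayed above 0 at 0.052.

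**Figure D3:**
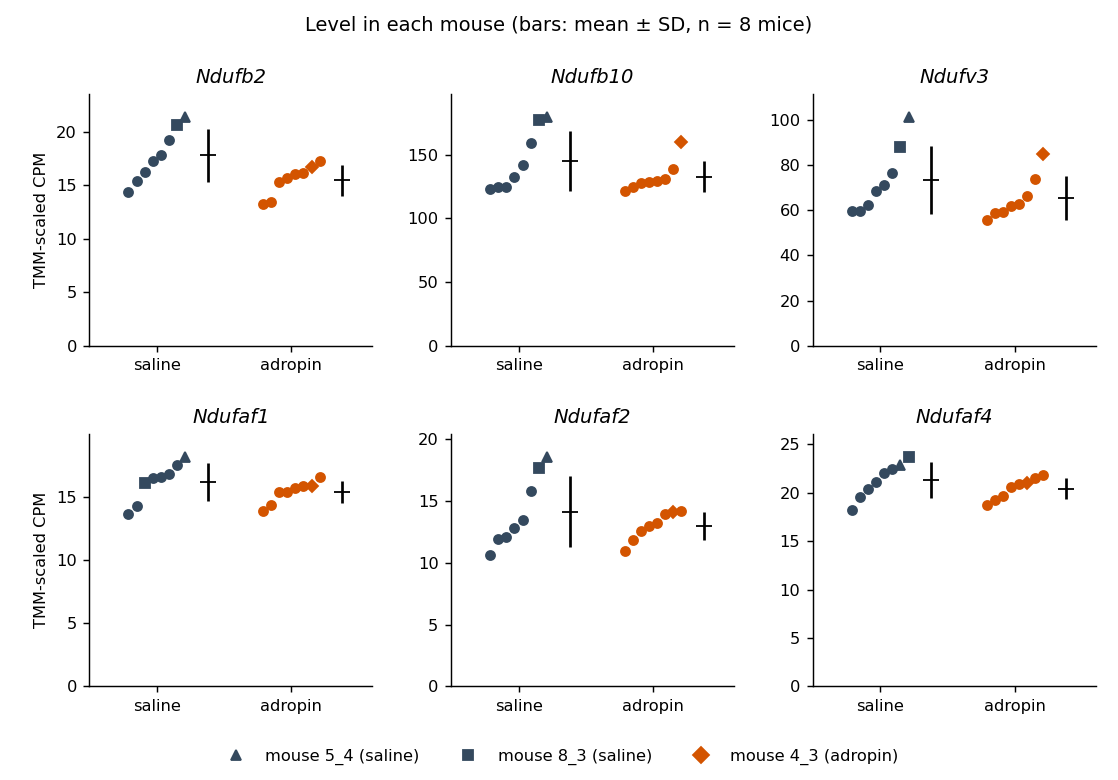
TMM-scaled CPM in each mouse for the 3 subunits and the 3 assembly factors with the smallest p; bars are mean ± SD of 8 mice, and mice 5_4, 8_3 and 4_3 have symbols of their own. In Ndufb10 and Ndufv3 these 3 mice sit above all others of their group, while in Ndufaf1 and Ndufaf4 not all of them do.

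Of the genes outside the enzyme, Ndufa4 ran from 145.6 through 171.9 to 251.3 CPM with saline and from 148.1 through 171.6 to 204.3 CPM with adropin, with nearly equal medians and a log2 fold change of -0.091 ± 0.11. Ndufa4l2 had a log2 fold change of 0.085 ± 0.11. Without mice 4_3, 5_4 and 8_3 the value of Ndufa4 turned to 0.039.

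Most of the spread of complex I mRNA was between mice of the same group. To describe it, each log2 level was taken relative to the mean of the 16 mice, and the median over the 36 subunits was calculated in each mouse. Saline-treated mice 5_4 (0.53) and 8_3 (0.36) and adropin-treated mouse 4_3 (0.31) were the highest, and adropin-treated mouse 2_4 (-0.24) and saline-treated mouse 5_3 (-0.20) were the lowest. The group means of these medians were 0.057 ± 0.26 with saline and -0.042 ± 0.17 with adropin (SD, n = 8 each), so the difference was smaller than the spread in either group. The group medians, at -0.030 and -0.076, were closer than the means.

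The pattern was shared by nearly all members. Mouse 5_4 had the highest level of 40 of the 46 genes and of 33 of the 36 subunits, and in 30 genes mice 4_3, 5_4 and 8_3 were the 3 highest of the 16. Assembly factors followed with smaller steps, with medians of 0.27, 0.18 and 0.12 in mice 5_4, 8_3 and 4_3. The core subunits did so as well, at 0.21, 0.22 and 0.12. Ndufs1 went against the rest. Its lowest level of all 16 mice, 85.9 CPM, was in mouse 5_4, and its highest, 107.0 CPM, was in mouse 1_3. Ndufa9, a peripheral arm subunit that binds NADPH, varied little between mice, with an SD within groups of 0.074 on the log2 scale, against a median of 0.19 over the 13 subunits that, like it, have transcripts over 1000 bases, and 0.25 over the 23 shorter ones. Ndufv1, Ndufs1 and Ndufa10 were close to it, at 0.085, 0.087 and 0.096.

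Transcript length went along with this spread. Subunit mRNAs are short, with a median of 771.5 bases for the shortest principal transcript and a range from 315 (Ndufc1) to 2590 bases (Ndufs1), while assembly factors had a median of 1308.5 bases. Across the 36 subunits, the Spearman correlation of length with the within-group SD was -0.56 and with the log2 fold change 0.48. Genes are not independent replicates, and these values describe the same 16 libraries. Other short genes moved with the members: 887 genes outside complex I with transcripts of up to 1000 bases had medians of 0.43, 0.31 and 0.25 in mice 5_4, 8_3 and 4_3, and 2460 genes with transcripts over 5000 bases had medians of -0.28, -0.19 and -0.19. Cytosolic ribosomal protein genes showed 0.54, 0.40 and 0.33 in these mice, and genes of complexes III to V 0.46, 0.35 and 0.26. The share of reads held by Gm42418 was 1.004%, 1.55% and 0.84% in mice 5_4, 8_3 and 4_3, and 2.31% and 3.26% in mice 2_4 and 5_3, the lowest in complex I mRNA, while its highest share, 4.98%, was in mouse 7_4, whose subunit median was -0.067. The part of transcript length or of this RNA in the complex I values was not tested, and measures of RNA integrity were not used here.

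**Figure D4:**
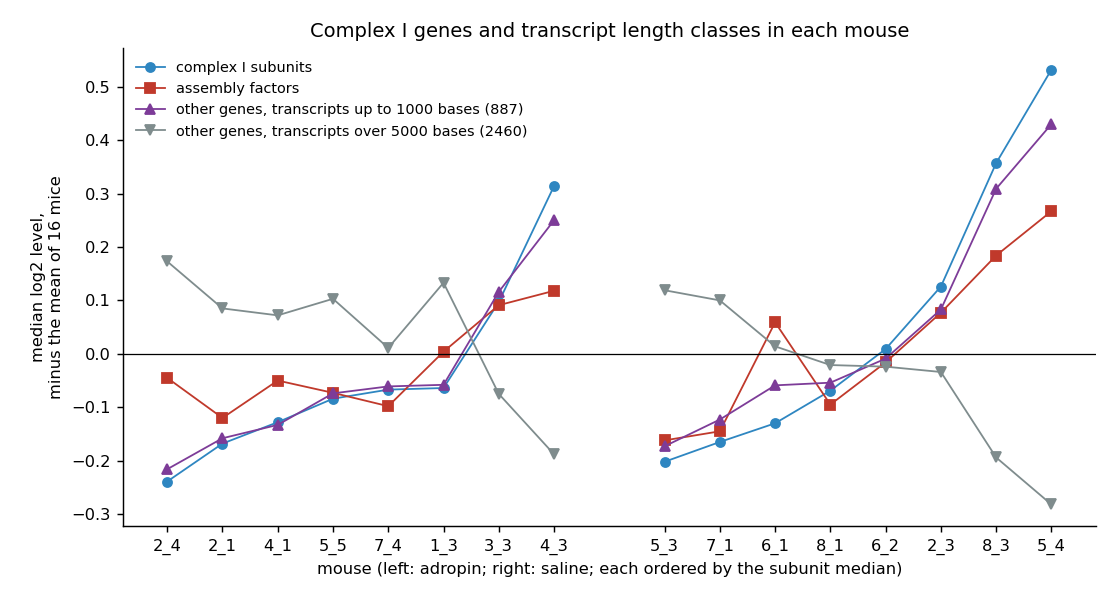
Median log2 level, relative to the mean of 16 mice, of subunits, assembly factors and other genes by transcript length in each mouse, with mice of each group ordered by the subunit median. Subunits and other short genes are highest in mouse 5_4, at 0.53 and 0.43, where genes with long transcripts are lowest, at -0.28.

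The same gradient was present in the comparison of the groups. Over the 13570 genes tested that have a principal transcript, the median log2 fold change was -0.14 for 210 genes with transcripts of up to 600 bases, -0.099 for 322 genes of over 600 to 800 bases, and -0.089 for 382 genes of over 800 to 1000 bases. It was -0.054 for 1332 genes of over 1000 to 1500 bases, 0.028 for 4032 genes of over 3000 to 5000 bases and 0.074 for 2460 longer genes. Subunits in the 3 shortest classes had medians of -0.15 (10 genes), -0.10 (9 genes) and -0.10 (4 genes), at most 0.011 below the median of all genes of their length. The subunits of over 1000 to 2000 bases lay further below the genes of their length. The median was -0.13 over 6 subunits of over 1000 to 1500 bases (-0.076 from all genes of the class). It was -0.081 over 5 subunits of over 1500 to 2000 bases (-0.047 from all genes of the class). The median of the 2 subunits of over 2000 to 3000 bases was instead 0.0067 above that of all genes of the class. Of the 23 subunits with transcripts of up to 1000 bases, 23 had a log2 fold change below 0, beside 86.8% of the 887 other genes in that range.

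When the trend on transcript length was removed within each library, with the length of the shortest principal transcript, 22 of 36 subunits and 4 of 8 assembly factors were below 0, and the medians were -0.012 and 0.0003. Ndufb2 then had a log2 fold change of -0.061 and an unadjusted p of 0.469 (edgeR). With the trend on the length of all exons of a gene together, the medians were -0.045 and -0.0055 and Ndufb2 stayed at -0.23, and its exons together sum to 5628 bases. Leaving out mice 4_3, 5_4 and 8_3 gave medians of -0.024 for subunits (25 of 36 below 0) and -0.0037 for assembly factors (4 of 8). In that setting 47.9% of all genes were below 0, and 65.4% of the other genes with transcripts of up to 1000 bases (median -0.026).

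**Figure D5:**
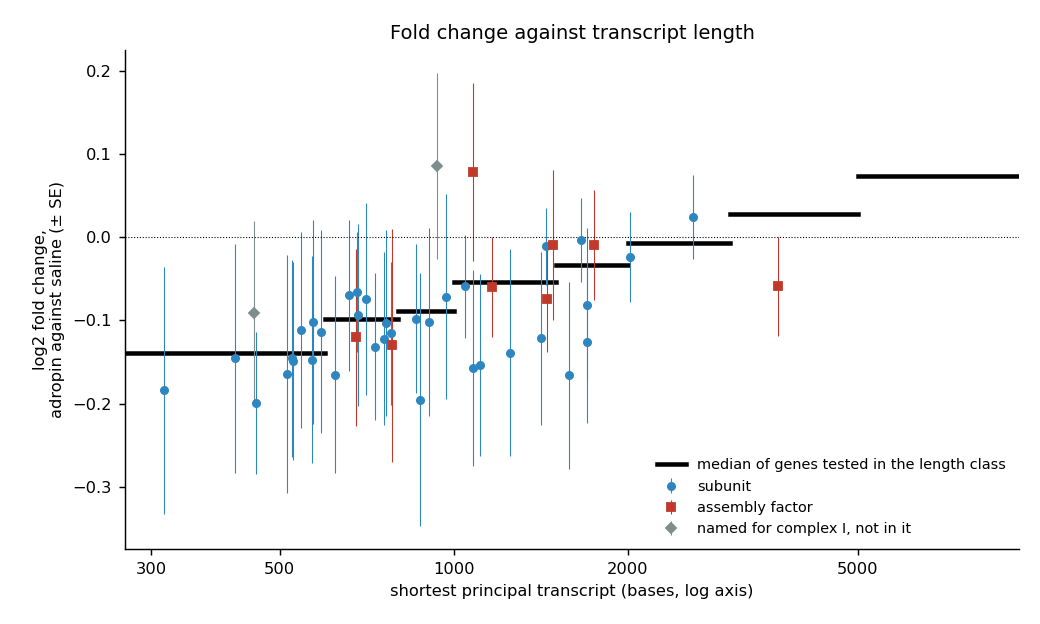
Log2 fold change, adropin against saline, of 45 complex I genes (± SE) against the length of its shortest principal transcript on a log axis; black bars are medians of the 13570 genes tested that have a principal transcript, in length classes, with the shortest class drawn from the left edge and the longest to the right edge. The bars climb from -0.14 to 0.074, and most subunits lie around the bar of their class.

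Some counts cannot be assigned to a single member with certainty. For 17 of 46 members, bases of the shortest principal transcript lie in exons of another gene in the GENCODE annotation of GRCm38. The authors counted unambiguous reads, and whether strand was used is not given in the sources used here. Ndufb2 (chr6:39592574-39603382, plus strand) is the member this concerns most, since 229 of the 455 bases of its transcript are shared with exons of Braf, Gm42420 and the antisense RNA Gm16272. For Ndufb6 the figure was 257 of 659 bases (Smim27), for Ndufa13 375 of 1251 (Tssk6), for Ndufb9 201 of 704 (Gm49356) and for Ndufb5 216 of 1079 (Mrpl47). Processed pseudogenes can also share reads with their parents. Ndufb4c is identical to Ndufb4 over 390 aligned bases, and the copy was counted at 1.44 ± 0.57 CPM (SD, n = 16). Gm4459 and Ndufab1-ps match Ndufab1 at 99.8% and 99.4%, at 2.04 ± 0.52 and 2.59 ± 0.51 CPM. Ndufab1-ps had a log2 fold change of -0.30 ± 0.13 (unadjusted p = 0.0372, adjusted p = 0.874, edgeR), a difference of 2.33 ± 0.46 against 2.85 ± 0.45 CPM in a copy that is no member.

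The rest of the pathway was described from lists of the same kind. The 7 subunits encoded in mitochondrial DNA had the largest median difference of these lists, with 7 of 7 log2 fold changes below 0 and a median of -0.29. Of these, mt-Nd4l had an unadjusted p below 0.05, at 60.8 ± 10.1 CPM with adropin and 74.4 ± 17.2 CPM with saline (log2 fold change -0.29 ± 0.13, unadjusted p = 0.0340, adjusted p = 0.874, edgeR). Mice 8_3 and 5_4 had the highest medians of these 7 genes (0.80 and 0.79), and mitochondrial mRNAs carry short poly-A tails or none. With the trend on the shortest principal transcript removed, their median was -0.17, and with that on all exons removed it was -0.16. Without mice 4_3, 5_4 and 8_3 it was -0.067 (7 of 7 below 0), with mt-Nd4l at -0.17 (unadjusted p = 0.0731, edgeR).

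Of the 12 assembly factors not named Nduf, 11 were tested. The median was -0.040, 9 were below 0, none had an unadjusted p below 0.05, and the smallest p was that of Ecsit (-0.10 ± 0.081, unadjusted p = 0.221, edgeR). Complex II, which takes electrons from succinate and has no mitochondrially encoded subunit, had a median of -0.035 over 4 genes, and its smallest p was that of Sdhc (-0.081 ± 0.073, unadjusted p = 0.280, edgeR). Complexes III to V had 36 of 41 genes below 0 and a median of -0.10, and the smallest p was that of Cox6b2, an isoform known from testis (-0.42 ± 0.22, unadjusted p = 0.0668, edgeR). All 81 ribosomal protein genes tested were below 0, with a median of -0.12. Beside these counts, 50.8% of all genes tested were below 0, and 86.8% of genes outside complex I with transcripts of up to 1000 bases. With the trend on the shortest principal transcript removed, 20 of 41 genes of complexes III to V (median 0.0035) and 56 of 81 ribosomal protein genes (median -0.020) were below 0. With the planned trend on all exons removed, these counts were 27 of 41 (median -0.019) and 78 of 81 (median -0.068). Without mice 4_3, 5_4 and 8_3 the medians were -0.0024 for complexes III to V (22 of 41 below 0), 0.0030 for complex II, -0.022 for the assembly factors not named Nduf and -0.034 for ribosomal protein genes (65 of 81). Regulators of these genes had a median of -0.050, with 7 of 12 below 0. Among them Gabpb1, a subunit of the ETS factor GABP, had the smallest p (-0.13 ± 0.069, unadjusted p = 0.0709, edgeR), Nrf1 was at -0.045 ± 0.061, and Ppargc1a, a coactivator of mitochondrial genes, was at 0.090 ± 0.089. Of the 156 genes tested in these lists, 1 (0.641%), mt-Nd4l, had an unadjusted p below 0.05, against 3.99% of all genes, and none an adjusted p below 0.05.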

How the data were processed

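The authors aligned the reads with STAR to the mouse assembly of Ensembl release 76 and deposited raw counts from featureCounts, which took only reads that aligned once and to a single gene. Their CPM table, the same counts scaled to library totals, was not used. Dropping 276 repeated entries of 40757 left 40481 genes. A minimum of more than 1 CPM in 7 or more of the 16 mice was set and 355 genes annotated as rRNA left out, which left 14949 genes. These were compared by edgeR 4.0.16 (R 4.3.3), with TMM factors and the quasi-likelihood test, without a block, and p-values were adjusted over all 14949 genes by the Benjamini-Hochberg method. Levels in the text are TMM-scaled CPM, and log2 levels used a prior count of 2. Lengths and exons came from GENCODE M21 (GRCm38), whose release differs from the authors' Ensembl release, and upstream sequences from RefSeq (GRCm38.p6). The length trend was a lowess curve (span 0.3) on log2 length in each library, used as an offset.

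Named genes were, in subunits and assembly factors, the 3 with the smallest p, those with the highest and lowest level per length, Ndufa4, Ndufa4l2, Ndufab1, the core subunits, and in other lists those with an unadjusted p below 0.05 or else the smallest p. Others named were chosen after values were seen, 1 member is counted but not reported on its own, and 1 marker gene was not used here. The members and lists were chosen with earlier results of these data known. Alternatives were limma-voom with or without sample quality weights (limma 3.58.1), DESeq2 1.42.0, other scalings and filters, ribosomal protein genes left out, length trends, label numbers as blocks and leaving out mice. Members had 125 to 13133 reads per mouse, so counting error weighs most on the lowest, Ndufa4l2 and Ndufaf6.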

Additional observations from a re-analysis of the deposited data

Results flagged for a closer look

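Among 92 comparisons (46 genes in 2 groups of 8 mice), 4 had a mouse far from the others of its group, where chance flags about 1 in 20, or 4.6 of 92. Saline-treated mouse 5_4 stood apart for Ndufaf7, at 36.2 CPM with the next mouse at 30.2, and for Ndufb6, at 38.2 CPM with the next at 28.97. Adropin-treated mouse 4_3 stood apart for Ndufb10, at 160.1 CPM with the next at 138.3, and for Ndufb11, at 116.0 CPM with the next at 95.7. These are the same mice in which short transcripts in general were high.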

How the results depend on the processing

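Across 29 alternatives, no member reached an adjusted p below 0.05 in any, and the smallest was between 0.511 and 0.999. The count of members with an unadjusted p below 0.05, 1 with edgeR, was 0 with the first or the second label number as a replicate block. It was also 0 with the principal-transcript length trend removed, which was not planned, and without mice 4_3, 5_4 and 8_3, chosen after seeing the data. Without single mice it was between 0 and 2: it was 0 without adropin-treated mouse 2_4, 4_1 or 7_4 or saline-treated mouse 5_4, 6_2 or 8_3, when the unadjusted p of Ndufb2 in edgeR lay between 0.0507 and 0.0754, and 2 without adropin-treated mouse 4_3, when Ndufa12 joined it (log2 fold change -0.21). The cause was not tested. The fold change of Ndufb2 was below 0 in every alternative. The subunit median was below 0 in all, from -0.21 (first number as a block, which rests on part of the mice) to -0.012. Without single mice it ran from -0.16 to -0.040. The assembly factor median lay between -0.12 and 0.0003. Their difference lay between -0.086 and -0.013, and between -0.10 and -0.0023 without single mice.

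The label numbers do not state a pairing. The 5 pairs of mice that share the first number across groups had correlations of deviations from -0.27 to 0.22 (median -0.013), against a median of -0.002 for the other 59 pairs, and the 17 pairs that share the second number from -0.56 to 0.30 (median -0.055), so the label numbers were not used as a pairing in the report. The block on the first number lowered the count of all genes with an unadjusted p below 0.05 from 596 to 327 and that on the second to 420. Only mice 2_1, 2_3, 2_4, 5_3, 5_4, 5_5, 7_1 and 7_4 share a first number with the other group. The treatment difference of the first block rests on them alone, so that fit is no comparison over all mice. Mice 5_5 and 6_2 drop out in the same way with the second number.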
